A study of Rattus norvegicus with 12 samples.

Results

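The Notch members described here were the receptors Notch1, Notch2 and Notch3, the ligands Jag1 and Jag2, and the target genes Hes1, Hey1 and Heyl, 8 of the 21556 genes in the deposited expression table, each found by its gene symbol. RNA sequencing was performed on ND7/23 cells, a line in which neurons of the rat dorsal root ganglion (DRG) were fused with the mouse neuroblastoma N18Tg2, to ask how menthol, a cooling compound that opens the ion channel TRPM8, and the signaling protein Wnt3a act on gene expression. There were 4 groups of 3 libraries: control cells, cells with 100 μM menthol, cells with 100 ng/ml Wnt3a, and cells with both, all taken at 6 h. The labels did not state a solvent for the control cells, whether the cells had been differentiated, or whether the libraries of a group came from separate cultures, so the p-values measure the spread between these libraries, which may be technical.

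Notch receptors are single-pass membrane proteins that are cut in the secretory pathway by Furin and trimmed with sugars before they reach the surface. A Jagged or Delta-like ligand on a neighboring cell pulls on the receptor, ADAM proteases and then γ-secretase cut it, and the freed intracellular domain enters the nucleus, where it joins the DNA-binding protein Rbpj and Mastermind-like coactivators to switch on genes of the Hes and Hey families. These encode repressors of neuronal differentiation genes. In the developing DRG, Notch signaling is known for holding progenitors back from becoming neurons and for promoting satellite glia.

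The value for each gene was FPKM, fragments per kilobase of gene and per unit of sequencing depth, which scales counts by gene length and can therefore be compared between genes. Between 36920743 and 38842283 reads were assigned to genes in each library, so that 3 reads, the number below which a count was treated as not distinguishable from 0, corresponded to 0.0772 to 0.0813 FPKM on a gene of 1 kb. These floors cover counting error only, whereas the 95% intervals of differences given for single genes come from the spread between libraries. Axin2, a feedback gene of the Wnt pathway used to check the Wnt3a stimulus, had 4.72 to 5.08 FPKM in control cells and 6.56 to 7.45 FPKM with Wnt3a. It rose by 0.51 on the log2 scale (SE 0.072, adjusted p = 0.00875, limma), a call that was lost on omitting control replicate 3 or Wnt3a replicate 2, and averaged over menthol it rose by 0.62 (adjusted p = 4.17e-05). Axin2 was 1 of 10 Wnt feedback genes listed for this check, of which 8 were in the table and 3 were tested. Of these 3, Axin2 alone was called with Wnt3a against control, where all 3 were higher, by 0.03 to 0.51 (median 0.14). With both stimuli against menthol, 2 were higher and 1 lower. Trpm8 itself was at 0.189 to 0.307 FPKM over the 12 libraries, or 61 to 97 reads. Of 15 neuronal marker genes, 11 had a mean under 0.1 FPKM: Tubb3 reached at most 0.0922 FPKM, Prph 0.0970 FPKM and Pou4f1 0.0275 FPKM, whereas Uchl1 (102 FPKM), Isl1 (13.2 FPKM) and Nefh (5.93 FPKM) were expressed. The fibroblast gene Col1a2 had a mean of 115 FPKM, and 7 of 10 fibroblast genes had at least 0.5 FPKM. This level was reached by 4 of 9 Schwann cell and satellite glia genes, 3 of 10 muscle genes, 2 of 8 endothelial genes and 2 of 8 macrophage genes, while the Schwann cell factor Sox10 had at most 1 read and the leukocyte gene Ptprc at most 2 reads in a library. The summed FPKM of the 10 fibroblast genes was 344 to 359 in control cells, 322 to 324 with menthol, 327 to 333 with Wnt3a and 313 to 321 with the combination. The largest term was Thy1, with a mean of 141 FPKM, a gene that is not restricted to fibroblasts. The part of this sum in the values of the Notch members was not tested, nor was that of reads from the mouse genome, since their handling was not given in the sources used here.

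Promoter sequences were taken from RefSeq, where 7 of the 8 members had an entry, Hey1 being the exception. Hes1 is shown because it is the classical direct target of Notch, and Notch2 and Jag1 because they were the receptor and ligand with the highest levels. Each run covers the bases from 250 to 51 before the annotated start in the rat genome build GRCr8, on the gene's own strand, with TGGGAA, the word preferred by Rbpj, in capitals. Hes1 lies at chr11:84213096-84213295 (minus strand), Notch2 at chr2:188299086-188299285 (plus strand) and Jag1 at chr3:144894934-144895133 (minus strand).
Hes1: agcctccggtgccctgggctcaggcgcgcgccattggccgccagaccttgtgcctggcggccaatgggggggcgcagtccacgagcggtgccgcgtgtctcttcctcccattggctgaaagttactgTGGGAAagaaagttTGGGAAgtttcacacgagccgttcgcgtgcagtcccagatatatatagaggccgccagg
Notch2: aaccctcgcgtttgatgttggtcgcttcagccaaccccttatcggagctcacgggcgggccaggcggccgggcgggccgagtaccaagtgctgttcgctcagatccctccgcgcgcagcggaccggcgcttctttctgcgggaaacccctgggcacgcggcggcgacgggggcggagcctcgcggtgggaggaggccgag
Jag1: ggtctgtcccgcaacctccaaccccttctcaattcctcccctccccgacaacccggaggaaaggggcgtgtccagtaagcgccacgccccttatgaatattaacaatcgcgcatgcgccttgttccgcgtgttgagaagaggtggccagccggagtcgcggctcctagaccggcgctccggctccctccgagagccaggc
Hes1 carried TGGGAA 2 times, starting 123 and 109 bases before the start. No match on either strand lay in the 250 upstream bases of Notch1, Notch2, Notch3, Jag1, Jag2 or Heyl. Of 33469 promoter windows of that length, 22.1% held at least 1 match and 2.71% held 2 or more. The N-box CACNAG, a word bound by Hes proteins, matched 4 times each in the windows of Hes1 and Notch1, and 4 or more matches occurred in 0.197% of all windows. None of the matches in Hes1 overlapped TGGGAA. These are descriptions of the letters and not evidence of binding.

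The 8 members spanned more than 3 orders of magnitude. Notch2 was the highest, with a mean of 26.4 FPKM over the 12 libraries, which placed it above 86.6% of the genes in the table. Jag1 (1.91 FPKM), Hes1 (0.837 FPKM) and Notch1 (0.401 FPKM) followed, and Jag2 (0.0331 FPKM), Heyl (0.00787 FPKM), Notch3 (0.00567 FPKM) and Hey1 (0.00456 FPKM) were close to the limit of detection. The order Notch2, Jag1, Hes1, Notch1, Jag2 held in 12 of 12 libraries, and the ranges of these neighbors did not overlap. Below Jag2 the order was not resolved: Jag2 was above Heyl and above Notch3 in 11 of 12 libraries each, but Heyl was above Notch3 in only 4 of them and Notch3 above Hey1 in 7 of them.

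**Figure D1:**
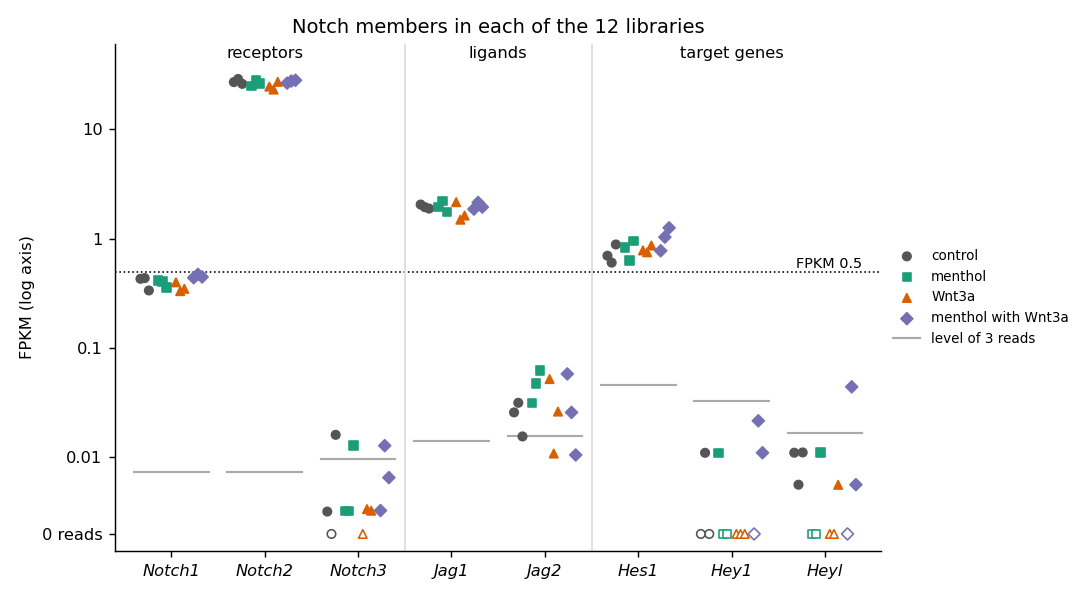
FPKM (log axis) of the 8 members in each of the 12 libraries, with a color and marker per group, open symbols for libraries with 0 reads, gray lines at the level of 3 reads and a dotted line at the FPKM minimum of 0.5 used for testing. Notch2 lies between 23.0 and 28.7 FPKM in every library, whereas Notch3, Hey1 and Heyl lie around or below the level of 3 reads.

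Notch2 supplied nearly all of the receptor message. Its share of the summed FPKM of Notch1, Notch2, Notch3 and Notch4 was 97.4% to 98.3% in the individual libraries, and it exceeded Notch1 by 58.4 to 77.8 times. Jag1 held 64.3% to 83.7% of the summed FPKM of the 5 ligand genes, and it exceeded Dll1, the next ligand, by 2.35 to 7.18 times. The target list held Hes and Hey family genes and Nrarp, and whether each responds to Notch in these cells was not tested. Over its 9 genes found in the table, Hes1 held 2.82% to 5.92% of the summed FPKM, a share that depends on counting Hes6. Hes6, a family member known to counteract Hes1 and to favor neuronal differentiation, held 83.5% to 90.1% and was above Hes1 by 14.1 to 31.1 times.

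For the comparisons, 11451 genes with a mean of at least 0.5 FPKM were tested together with limma on log2(FPKM + 0.1), with the calling threshold set at an adjusted p of 0.05. Fold changes on this scale understate the change of low genes. Notch2, Jag1 and Hes1 entered this test. Notch1 fell below the minimum and was tested on read counts recovered from the FPKM values, with limma voom over the 13365 genes with a mean of at least 10 reads, a choice made after the values were seen. Notch3, Jag2, Hey1 and Heyl passed neither filter and are described by their reads. They were tested only in alternative fits without a minimum, where none was called. None of the 3 members in the main test was called in any of 7 comparisons, nor was Notch1 with voom.

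The share of all tested genes that was called was small as well. With menthol against control, 0.105% of genes were called (12 genes), with Wnt3a against control 0.437% (50 genes), with menthol and Wnt3a against Wnt3a 0.0524% (6 genes), and with both against menthol 0.0961% (11 genes). Averaged over the other stimulus, 0.803% of genes were called for Wnt3a (92 genes) and 1.15% for menthol (132 genes). The interaction, which asks whether menthol acted differently in the presence of Wnt3a, called 0% (0 genes by limma on FPKM, with 800 genes at an unadjusted p under 0.05, and 1 gene by voom). With voom the shares were 0.464%, 1.99%, 0.995%, 0.269%, 2.14%, 2.10% and 0.00748% in the same order. Against shares this low, 0 calls among 3 or 4 members says little on its own, so the values and intervals of each member are given.

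Notch2 is a receptor with broad expression across tissues. Its level was 26.9, 28.7 and 25.9 FPKM in the control libraries and 24.9, 27.7 and 26.2 FPKM in the menthol libraries. It was 24.5, 23.0 and 27.1 FPKM in the Wnt3a libraries and 26.4, 27.5 and 28.0 FPKM in the libraries with both stimuli. The groups overlapped in every pair, with the lowest library, Wnt3a replicate 2, and the second lowest, Wnt3a replicate 1, both in the Wnt3a group.

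The Notch2 mean was 27.2 ± 1.42 FPKM in control cells and 24.8 ± 2.05 FPKM with Wnt3a (SD, n = 3 each), a log2 difference of -0.13 (SE 0.059, unadjusted p = 0.0429, adjusted p = 0.311, limma). With menthol it was 26.2 ± 1.43 FPKM, a difference from control of -0.05 with a 95% interval of -0.18 to 0.08. With both stimuli it was 27.3 ± 0.832 FPKM, which was 0.14 above Wnt3a alone (interval 0.01 to 0.26, unadjusted p = 0.0358, adjusted p = 0.308) and 0.06 above menthol alone. The interaction was 0.19 (SE 0.083, adjusted p = 0.715). Leaving out 1 of the 12 libraries at a time gave -0.19 to -0.08 for Wnt3a against control and 0.08 to 0.20 for both against Wnt3a. These differences rested partly on Wnt3a replicate 2: without it, Wnt3a differed from control by -0.08 (adjusted p = 0.700), and both stimuli differed from Wnt3a by 0.08 (adjusted p = 0.650).

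Notch2 has a long message of 10723 bases, and that library was low for long messages in general. The median of 1187 tested genes of at least 8000 bases, each relative to its own mean, lay 0.15 below that of 3287 genes under 2000 bases in Wnt3a replicate 2 on the log2 scale. In the other 11 libraries this measure, chosen after the values were seen, was between -0.07 and 0.05, and Wnt3a replicate 1 was the second lowest. Its part in the Notch2 values was not tested.

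Notch1, the receptor best known from neural progenitors, was at 0.429, 0.435 and 0.336 FPKM in control, 0.414, 0.404 and 0.357 FPKM with menthol, 0.399, 0.331 and 0.348 FPKM with Wnt3a, and 0.439, 0.471 and 0.446 FPKM with the combination. Each value rested on 129 to 193 reads. The 3 libraries with both stimuli were above all 9 others, and of the 4 members with a mean of at least 10 reads Notch1 was the only one with groups that did not overlap. Such separation occurred for 16.7% of genes between both stimuli and Wnt3a, for 11.2% between both and menthol, for 19.3% between both and control, and with both above all 9 other libraries for 0.696% (93 of 13365 genes). For menthol against control and Wnt3a against control, where no member separated, the shares of genes were 15.3% and 19.0%.

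The Notch1 difference between both stimuli and Wnt3a alone was 0.33 on the log2 scale (SE 0.159, interval 0.01 to 0.66, unadjusted p = 0.0454, adjusted p = 0.336, limma voom). With limma on log2(FPKM + 0.1) without the FPKM minimum it was 0.27 (interval -0.04 to 0.58, unadjusted p = 0.0820). Against menthol alone the voom difference was 0.21 (SE 0.155, adjusted p = 0.886). Menthol and Wnt3a given singly differed from control by -0.02 and -0.15, with intervals of -0.35 to 0.30 and -0.48 to 0.19. The separation was narrow. In reads it was a tie, with 176 in the lowest library with both stimuli and 176 in control replicate 1, and only the scaling by library total set them apart. The Notch1 message is also long, at 10556 bases, and its lowest value was in Wnt3a replicate 2. The part of message length in the Notch1 values was not tested.

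Notch3, a receptor of vascular mural cells, was seen in 0 to 5 reads per library and 21 reads in all. The reads summed to 6 in the control group, 6 in the menthol group, 2 in the Wnt3a group and 7 in the combined group. Only 3 libraries, control replicate 3, menthol replicate 3 and replicate 2 with both stimuli, exceeded 3 reads, and 2 libraries had none. With 3 reads equal to 0.00961 to 0.0101 FPKM on this message of 8035 bases, a difference between groups was not detectable at this depth. Notch4, the remaining receptor and an endothelial one, had 25 to 62 reads and a mean of 0.153 FPKM, and its voom difference between menthol and control was 0.36 (SE 0.322, adjusted p = 0.788).

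Jag1, the ligand most associated with lateral induction and boundary formation, was at 2.05, 1.94 and 1.88 FPKM in control and 1.93, 2.21 and 1.75 FPKM with menthol. It was at 2.15, 1.49 and 1.62 FPKM with Wnt3a and at 1.86, 2.14 and 1.94 FPKM with both. The Wnt3a group held the lowest 2 libraries and also the second highest, so every pair of groups overlapped. Jag1 is a known Wnt target in several epithelia. In these cells its mean was 1.95 ± 0.0844 FPKM in control and 1.75 ± 0.351 FPKM with Wnt3a (SD, n = 3 each), a log2 difference of -0.16 with a 95% interval of -0.44 to 0.11 (adjusted p = 0.590, limma). Menthol differed from control by 0.00 (SE 0.128) and both stimuli from Wnt3a by 0.18 (interval -0.10 to 0.45, adjusted p = 0.552). Both values depended on single Wnt3a libraries. The first was -0.06 without Wnt3a replicate 2 and -0.31 without Wnt3a replicate 1, and the second was 0.08 and 0.33.

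Jag2, a second Jagged ligand, had 2 to 12 reads per library. Its reads summed to 14 in the control group, 27 in the menthol group, 17 in the Wnt3a group and 18 in the combined group. The highest library was menthol replicate 3 with 12 reads, but menthol replicate 1 had 6 reads, the same as control replicate 2, and 2 reads occurred with Wnt3a and with both, so no order of the groups could be read. The Delta-like ligands were low as well. Dll1, the main ligand of neural progenitors, had 36 to 73 reads and 0.300 to 0.634 FPKM, a range that overlapped that of Notch1. Its voom difference between both stimuli and menthol was -0.37 (SE 0.299, adjusted p = 0.907). The 3 libraries with both stimuli lay below the 3 with menthol, and 11.2% of genes did not overlap in this comparison. Dll3, which acts inside the cell and inhibits Notch, had 4 to 17 reads. Dll4, the endothelial tip cell ligand, had 0 reads in 9 of 12 libraries and 9 reads in all.

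Hes1, the repressor used most often as a readout of Notch activity, was at 0.697, 0.603 and 0.883 FPKM in control and 0.831, 0.631 and 0.947 FPKM with menthol. It was at 0.780, 0.749 and 0.864 FPKM with Wnt3a and at 0.774, 1.03 and 1.25 FPKM with both. The 2 highest libraries of the 12 were with both stimuli, but the third library of that group lay within the range of every other group. The group means were 0.728 ± 0.143, 0.803 ± 0.160, 0.798 ± 0.0595 and 1.02 ± 0.240 FPKM (SD, n = 3 each). Hes1 was 0.30 above Wnt3a alone (interval -0.11 to 0.71, adjusted p = 0.496) and 0.30 above menthol alone (interval -0.11 to 0.71, adjusted p = 0.852) when both stimuli were present. Without replicate 3 of the combined group these values were 0.15 and 0.15, and without its replicate 1 they were 0.465 and 0.470. Without menthol replicate 2 the second was 0.16. Its Wnt3a difference averaged over menthol was 0.22 (SE 0.135, adjusted p = 0.514), and its menthol difference averaged over Wnt3a was 0.21 (SE 0.135, adjusted p = 0.484).

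These Hes1 values rested on 39 to 81 reads. Counting alone gives a log2 SD of 0.196 at its mean of 54.4 reads, and the SD within groups was 0.245. The SD within groups is on log2(FPKM + 0.1) here and below, which understates the spread of low genes, while the counting SD is on plain log2. For Notch2, with 9106 to 11725 reads, counting gave 0.0139 and the libraries of a group varied by 0.0828, so replicate spread and not depth set its precision. For Jag1 the values were 0.0713 and 0.165, and for Notch1 they were 0.113 and 0.112. The second value of Notch1 is understated by the added 0.1 FPKM, so its 2 values do not show that spread equaled counting. On the log2(FPKM + 0.1) scale no 95% interval of Notch2, Jag1 or Hes1 reached a 2-fold change in any of the 7 comparisons, the widest bound being 0.75 for the interaction of Hes1. With voom the upper bounds of Hes1 were wider, at 0.99 for the interaction, 0.88 for both stimuli against menthol and 0.87 for both against Wnt3a, the first of which lies just under a 2-fold change.

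**Figure D2:**
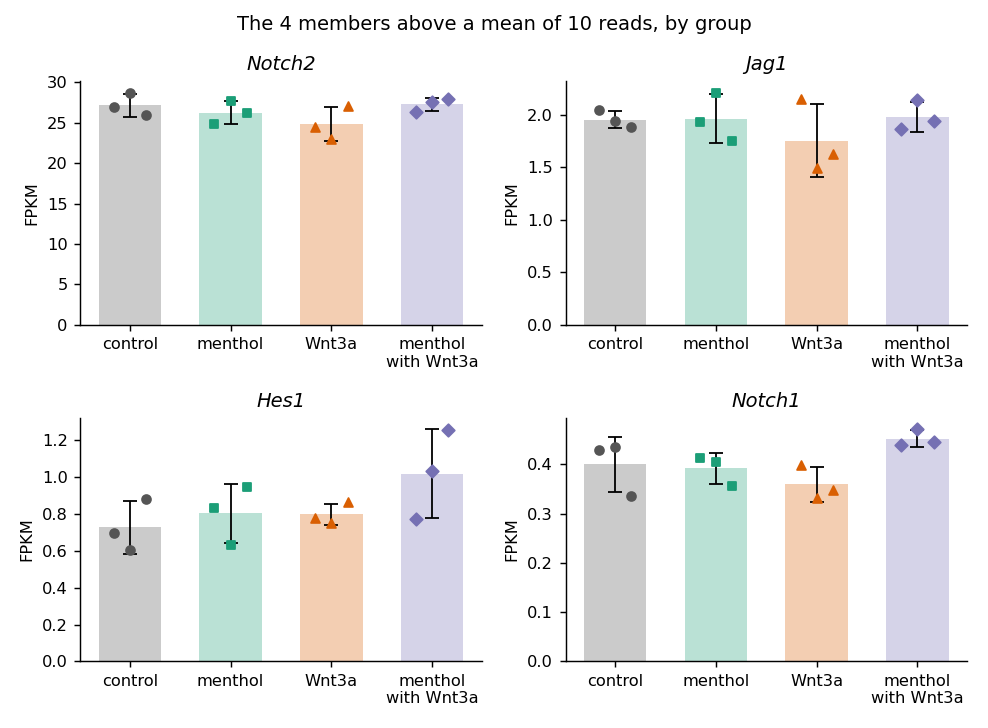
FPKM (linear axis from 0) of Notch2, Jag1, Hes1 and Notch1 by group, with bars for the mean of 3 libraries, error bars for the SD and a point per library. The groups overlap for Notch2, Jag1 and Hes1, and the 3 Notch1 libraries with both stimuli, at 0.439 to 0.471 FPKM, lie above all others, the nearest at 0.435 FPKM.

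Hey1, a target and repressor of vascular and cardiac development, had 0 reads in 8 of 12 libraries and at most 2 reads in a library. No library reached the level of 3 reads, which lay at 0.0324 to 0.0341 FPKM for its 2382 bases. Heyl, a related target known from smooth muscle and from DRG neurons, had 17 reads in all. Of these, 8 came from replicate 2 with both stimuli, at 0.0442 FPKM, and the other 11 libraries had 0 to 2 reads. Leaving that library out left 9 reads over 11 libraries, and a group difference was not detectable for either gene.

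**Figure D3:**
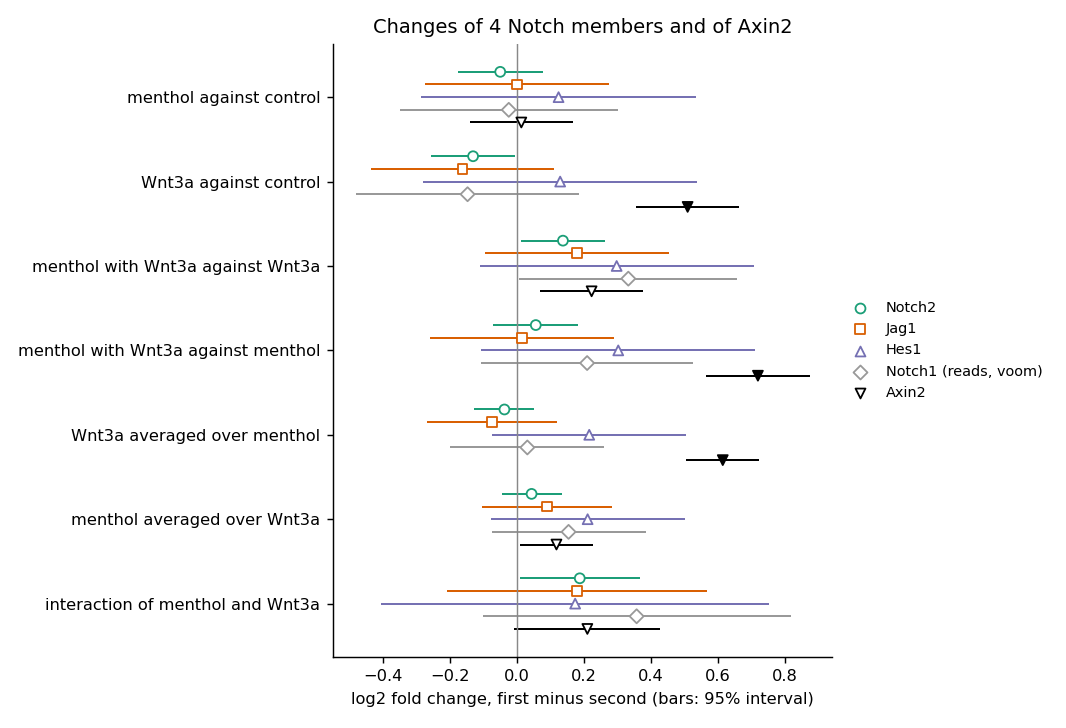
Log2 fold changes (x axis, first group minus second) with 95% intervals for Notch2, Jag1, Hes1 and Axin2 from limma on log2(FPKM + 0.1) and for Notch1 from limma voom on reads, in the 7 comparisons, with filled symbols at an adjusted p under 0.05. The filled symbols are those of Axin2 in the 3 comparisons of Wnt3a, at 0.51, 0.72 and 0.62, and no Notch member has one.

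Likeness to the tested members was described by the Pearson correlation of log2(FPKM + 0.1) over the 12 libraries. The genes closest to Notch2 were Limd1 (r = 0.959, Spearman's rho = 0.916) and Dcaf1 (r = 0.951, rho = 0.923). Without the 2 libraries farthest from the median of Notch2, Wnt3a replicates 1 and 2, r was 0.893 and 0.906. For Jag1 they were Apba1 (r = 0.902, rho = 0.790) and Ptpn21 (r = 0.893, rho = 0.734), and r fell to 0.724 and 0.671 without Wnt3a replicates 2 and 3. For Hes1 they were Setdb2 (r = 0.880, rho = 0.874) and Dennd4c (r = 0.860, rho = 0.811), with r = 0.795 and 0.805 without control replicate 2 and replicate 3 with both stimuli. These are the highest of 11450 values each, and all points share the same libraries and depths.

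The rest of the pathway was described with 9 lists by role, holding 73 genes with the members, of which 70 were in the table and 51 were tested. The machinery that handles the receptor was expressed throughout. Of 5 glycosylation genes, 4 passed the FPKM minimum, led by Poglut1 (24.9 FPKM), an O-glucosyltransferase, and Rfng (21.7 FPKM), a Fringe that modifies ligand choice. All 9 cleavage genes passed it, led by the γ-secretase subunits Psenen (52.1 FPKM) and Ncstn (41.7 FPKM). All 9 genes of the transcription complex passed it, led by Rbpj (58.7 FPKM) and Snw1 (42.0 FPKM), and so did 11 of 12 corepressor genes, led by Hdac1 (100.5 FPKM) and Ctbp1 (70.6 FPKM). Of 13 genes of endocytosis and turnover, 12 passed it, led by the ubiquitin ligases Dtx3l (20.9 FPKM) and Itch (15.8 FPKM).

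In contrast, most genes of the receptor, ligand and target lists were below the FPKM minimum. Only 1 of 4 receptors (Notch2, 26.4 FPKM), 1 of 5 ligands (Jag1, 1.91 FPKM) and 1 of 4 ligand-like genes (Egfl7, 4.15 FPKM, followed by Dner at 0.340 FPKM) passed the minimum. So did 3 of 9 genes of the target list, Hes6 (19.4 FPKM), Nrarp (1.72 FPKM) and Hes1. Nrarp, a feedback inhibitor of the intracellular domain, was above Hes1 in 12 of 12 libraries. None of 8 proneural genes, which Hes proteins repress, passed it, and the highest were Neurod4 (0.0671 FPKM) and Atoh8 (0.0165 FPKM).

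**Figure D4:**
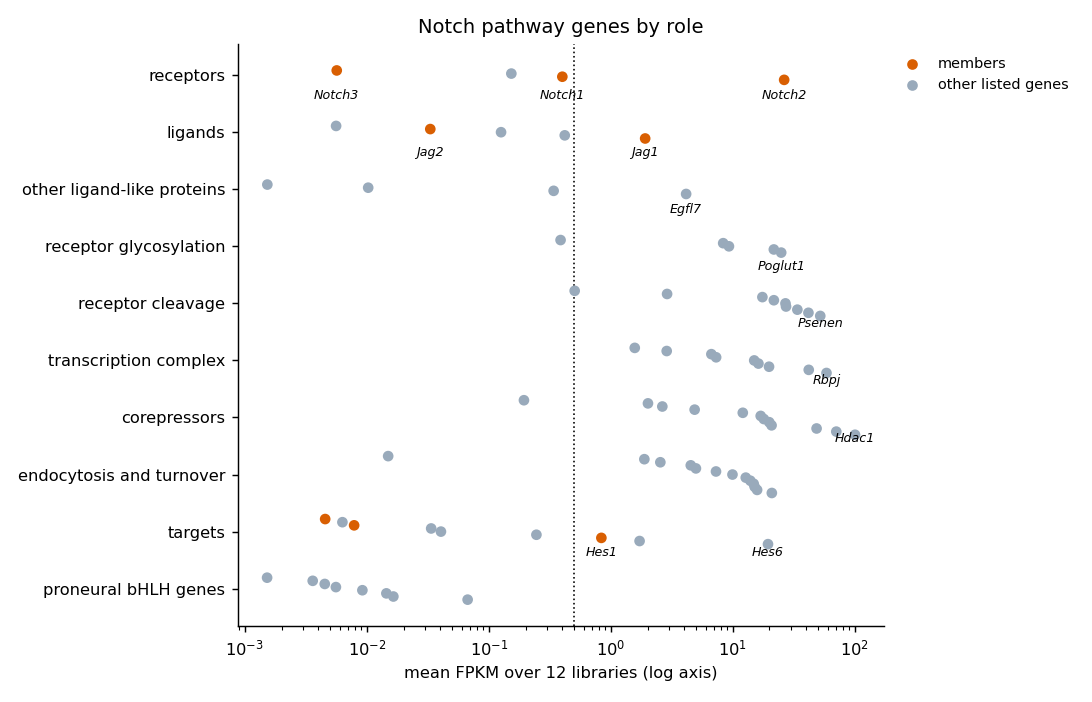
Mean FPKM over the 12 libraries (log axis) of each listed gene by its role in the pathway, with the 8 members in orange and a dotted line at 0.5 FPKM. The genes of receptor cleavage and of the transcription complex all lie above the line, up to 52.1 and 58.7 FPKM, whereas most receptors, ligands and targets lie below it.

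Furin, the convertase that makes the first cut in the receptor, was the only gene of these lists past the limma test on FPKM. It was at 33.5, 33.2 and 30.9 FPKM in control and 32.4, 36.4 and 34.1 FPKM with menthol. It was at 31.0, 30.5 and 32.8 FPKM with Wnt3a and at 35.9, 37.7 and 37.7 FPKM with both. The libraries with both stimuli were above all control and all Wnt3a libraries, while those with menthol alone overlapped control. Groups did not overlap for 19.3% of genes between both and control, and for 16.7% between both and Wnt3a. Furin rose with menthol averaged over Wnt3a by 0.16 (SE 0.034, adjusted p = 0.0400, limma), and the call was lost without the FPKM minimum (adjusted p = 0.0971) and on leaving out 9 of the 12 libraries one at a time, with an adjusted p up to 0.110 without control replicate 3. The log2 difference stayed between 0.13 and 0.18 on leaving out single libraries. With voom Furin was called for menthol averaged over Wnt3a (adjusted p = 0.00269) and for both stimuli against Wnt3a, where it was 0.24 higher (adjusted p = 0.00461). Furin cuts many secreted proteins other than Notch.

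Rbpj was at 59.1, 60.7 and 60.6 FPKM in control and 56.4, 54.6 and 55.9 FPKM with Wnt3a, and these groups did not overlap, as for 19.0% of genes. It was at 60.2, 60.1 and 61.0 FPKM with menthol and at 58.6, 58.7 and 58.0 FPKM with both. The difference between Wnt3a and control was -0.11 (SE 0.026, adjusted p = 0.0826, limma), and averaged over menthol it was -0.08 (SE 0.019, adjusted p = 0.0629). With voom the adjusted p was 0.0240 and 0.0212, so whether Rbpj was called depended on the test. Its message of 8336 bases is long as well, and the part of message length in its values was not tested.

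For the lists together, limma on FPKM called 0 genes in the other 6 comparisons. With voom, 59 genes of the lists were tested. Wnt3a against control called 3 of them lower, Rbpj and the histone acetyltransferases Crebbp (-0.27, adjusted p = 0.0397) and Ep300 (-0.15, adjusted p = 0.0431), both of which coactivate many factors besides Notch. Both stimuli against Wnt3a called 2 higher, Furin among them. Averaged over the other stimulus, Rbpj and Crebbp (-0.18, adjusted p = 0.0499) were called lower for Wnt3a and Furin higher for menthol, and 0 genes were called in the remaining 3 comparisons. Crebbp and Ep300 are named after their values were seen, and leaving out single libraries was not run for them. The part of message length in their values was not tested either. Counted by sign alone in limma on FPKM, 33 of 51 genes were higher and 18 lower with menthol (median 0.02 on the log2 scale, against 0.00 over all genes tested), and 22 were higher and 29 lower with Wnt3a (median -0.02, against 0.00). With both stimuli against Wnt3a, 36 were higher and 15 lower (median 0.05), and against menthol 33 were higher and 18 lower (median 0.02). The 60 genes that the deposited annotation assigns to the KEGG Notch signaling pathway, of which 43 were tested, gave 0 calls in all 7 comparisons of the same test, with medians between -0.01 and 0.05. The number of these genes at an unadjusted p under 0.05 was 5 with menthol, 10 with Wnt3a and 6 with both against Wnt3a, where 9.34%, 15.1% and 14.5% of all tested genes were. It was 1 with both against menthol and 6 for the interaction (6.72% and 6.99% of all tested genes). For Wnt3a and menthol, each averaged over the other stimulus, it was 7 and 9 (14.2% and 15.5%).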

How the data were processed

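Total RNA from 12 ND7/23 libraries was sequenced as 150 bp paired-end reads. Per the methods and the submitters' processing notes, the authors cleaned reads with fastp, aligned them with HISAT to mRatBN7.2, counted genes with HTSeq and deposited FPKM. The authors tested their counts with DESeq2, and R 3.2.0 is also named. Versions of the other tools were not given in the sources used here. Whether counting used strand was not given either.

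Whole reads were recovered from the steps of the deposited FPKM values for 21556 of 21556 genes (largest relative distance from a whole number 3.4e-13). The main test was limma 3.58.1 in R 4.3.3 on log2(FPKM + 0.1), over 11451 genes with a mean of at least 0.5 FPKM, with the 4 groups in 1 fit, a mean-variance trend and Benjamini-Hochberg adjustment. Libraries of a group differed beyond counting noise (chi-square per degree of freedom 3.53 to 7.61 over 12 pairs), so none was counted as a duplicate. The named genes were the 8 members, every tested pathway gene past adjusted p in any comparison, the 2 genes with the highest mean of each list, Notch4, Dll1, Dll3, Dll4, Rbpj, Axin2 and Trpm8, and for each tested member the 2 most correlated genes; marker genes were named as checks of the cell type. The members and lists were chosen with earlier results of these data known. Listed genes without a row in the table were not analysed here, and 1 gene called by voom is counted but not reported by name. Alternatives were other pseudocounts and minimums, median centring, fits of only the groups compared, a replicate block, voom and leaving out each library. The fit and the recovery of reads were tested on simulated data.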

Additional observations from a re-analysis of the deposited data

How the results depend on the processing

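The count of called members was 0 in all 7 comparisons under every alternative. A fit of only the groups compared was not run for the averaged comparisons and the interaction, which need all 4 groups. For the single members, the direction changed only where the difference was near 0. Jag1 with menthol against control was 0.00, and -0.00304 with libraries centred on their median and -0.0836 to 0.0778 with 1 library left out. Leaving out 1 library also gave -0.0619 to 0.0995 for Jag1 with both stimuli against menthol, -0.146 to 0.0410 for Notch1 with menthol against control, and -0.0301 to 0.0632 for Notch1 with Wnt3a averaged over menthol. The cause was not tested. Axin2 with Wnt3a against control missed the threshold without the FPKM minimum (adjusted p = 0.0529), on omitting control replicate 3 (0.0511) or Wnt3a replicate 2 (0.0563), and was called under the other alternatives that used the adjusted p alone. Averaged over menthol, Rbpj was also called without the FPKM minimum (adjusted p = 0.0438).

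Over the whole table, the number of called genes with menthol against control was 12, and 2 without a minimum, 3 with only those groups, 21 with the replicate block, 62 with voom and 0 to 15 with 1 library left out. With Wnt3a against control it was 50, and 9, 17, 50, 266 and 6 to 291. With both against Wnt3a it was 6, and 0, 0, 24, 133 and 0 to 38, and with both against menthol 11, and 2, 4, 10, 36 and 3 to 14. For Wnt3a averaged over menthol it was 92, and 57 without a minimum, 135 with the block, 286 with voom and 55 to 151 with 1 library left out. For menthol averaged over Wnt3a it was 132, and 85, 157, 280 and 52 to 143. A change of more than 2-fold as well left 0 to 2 genes per comparison.

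Whether replicate numbers paired the samples was not settled. Of 18 same-numbered pairs, 1 had r over 0.1 (range -0.0551 to 0.153), and r between libraries of other numbers ranged from -0.1569 to 0.1145. Of 12 libraries, 6 correlated best with a library of their own number. The replicate block raised the number of called genes in some comparisons and not in others. With the replicate block, Notch2 with Wnt3a against control stayed at -0.13 (adjusted p = 0.291). Notch3, Jag2, Hey1 and Heyl had so few reads that the fits without a minimum say little about them, so they are described by their reads.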
